A study of Homo sapiens with 6 samples.

Results

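PSAT1, SHMT2, MTHFD2, ASNS and PCK2 encode enzymes of serine synthesis, mitochondrial one-carbon metabolism, asparagine synthesis and phosphoenolpyruvate formation. They were taken by gene symbol and were 5 of the 5681 genes in a table of RNA-seq values from HT-29, a long-established line of human colorectal cancer cells. Each symbol matched exactly 1 row. The study asked which transcripts, and metabolic transcripts among them, change when OGT is depleted. OGT is the transferase that attaches O-GlcNAc to serine and threonine residues of intracellular proteins. The control group comprised 3 libraries from cells carrying a scrambled hairpin (Scramble, genotype WT in the labels), and the other group comprised 3 libraries from cells carrying a hairpin against OGT (shOGT, genotype OGT knock down). All 6 libraries therefore came from hairpin-carrying cells of the same line, with no untransduced cells. The hairpin used for sequencing is not named among the 2 OGT hairpins that the study lists, so an effect of that hairpin on other transcripts and an effect of OGT loss cannot be told apart. The labels do not say whether replicates were separate cultures, so the p-values measure the spread between these libraries, which may be technical.

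PHGDH, PSAT1 and PSPH convert the glycolytic intermediate 3-phosphoglycerate to serine. SHMT2 then moves a carbon unit from serine to tetrahydrofolate inside mitochondria and releases glycine, and MTHFD2 oxidizes the folate-bound unit on its way to formate, which feeds purine and thymidylate synthesis. ASNS makes asparagine from aspartate with glutamine as the nitrogen donor, and PCK2 is the mitochondrial enzyme that converts oxaloacetate to phosphoenolpyruvate. All 5 genes are well-known targets of ATF4, the transcription factor of the amino acid response, which binds elements that join a C/EBP site to an ATF site.

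The start of each gene is shown because the ATF4 element, if present in this stretch, can be read directly. Windows from 250 bases before to 50 bases after the annotated start were taken from RefSeq (GRCh38.p14), and 4 of the 5 genes matched, with SHMT2 unmatched. The windows were searched on both strands for 3 motifs. The first was TGATGNAA, a composite element of C/EBP and ATF4. The second was CACGTG, an E-box of the type bound by c-Myc. The third was the CCAAT box (CCAAT), the site of NF-Y. These motifs can share end bases only. Positions count from the RefSeq start, and capitals mark the motif. The ASNS line gives the only TGATGNAA among the 4 genes, 68 bases before that start (chr7:97872458-97872487, minus strand). Another RefSeq window of ASNS (chr7:97872116-97872415) held none of the 3 motifs. The PSAT1 line gives the 250 bases before the start with 3 CCAAT boxes (chr9:78296875-78297124, plus strand). MTHFD2 had 2 CCAAT boxes (chr2:74198418-74198447 and chr2:74198528-74198557, plus strand), and PCK2 had 1 (chr14:24094105-24094134, plus strand). The GENCODE starts of ASNS and PCK2 lie further upstream than these RefSeq starts, so all 30 bases of the ASNS line and 29 of the 30 bases of the PCK2 line are exonic in GENCODE. The MTHFD2 lines lie before MTHFD2 but in exons of another annotated gene, and the PSAT1 stretch lies outside exons.
ASNS: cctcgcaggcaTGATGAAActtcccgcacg
PSAT1: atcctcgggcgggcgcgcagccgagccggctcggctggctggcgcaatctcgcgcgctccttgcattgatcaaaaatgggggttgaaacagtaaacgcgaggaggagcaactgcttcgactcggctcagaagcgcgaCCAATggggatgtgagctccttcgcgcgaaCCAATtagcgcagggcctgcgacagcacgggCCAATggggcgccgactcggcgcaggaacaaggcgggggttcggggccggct
MTHFD2 distal: ggctcttctggctCCAATcaaaagcagggc
MTHFD2 proximal: catgcggcagggaCCAATgggtggcggagg
PCK2: tggacccagtcctCCAATgggagagatggg
TGATGNAA occurred in 3.617% of all 35116 RefSeq windows, CACGTG in 7.256% and CCAAT in 34.61%. Counted by gene, over 27305 genes with a window, the shares were 4.457%, 8.775% and 39.72%. CACGTG was not found in the windows of PSAT1, MTHFD2, ASNS or PCK2. A match is a description of the letters and not evidence of binding, and elements elsewhere in these genes were not searched.

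OGT itself was examined first, as the check of the labels. The Scramble libraries held 9628, 11638 and 11620 normalized counts of OGT (reads divided by a size factor for each library) and the shOGT libraries 484, 621 and 537, so 4.99% of the Scramble mean remained. The depth, as reads on listed genes, was 4145921 to 4504303 per Scramble library and 3302558 to 3471647 per shOGT library. The table holds only genes that the authors had selected as changed at least 2-fold: the smallest absolute log2 ratio of group means was 0.9998. It follows that 99.4% of the 5671 genes tested were called changed here (limma, adjusted p under 0.05 and an absolute log2 fold change over 1), 47.2% lower and 52.2% higher in shOGT. The shares of the members called lower and of the members with separated groups are therefore set by the table, and only the sizes of the changes and their order describe the genes. The limma p-values below come from the libraries already used for this selection and are adjusted over selected genes only. They are descriptions and not fresh tests. Of the 12 colorectal epithelial markers listed, 5 were in the table, where KRT20, KRT19 and CDH17 were higher in shOGT and LGALS4 and VIL1 were lower. VIL1 shares 44.0% of its exon bases with a gene on the opposite strand. Of 12 markers of other cell types, only the endothelial marker PECAM1 was in the table, at 42.3 to 51.4 normalized counts in Scramble and 129 to 200 in shOGT. Their part in the results below was not tested. In bulk RNA, fewer cells with a transcript and less of it in each cell cannot be told apart.

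All 5 enzymes were lower in shOGT, by 2.22-fold for PSAT1, 2.93-fold for MTHFD2, 3.66-fold for ASNS, 3.95-fold for SHMT2 and 7.61-fold for PCK2. In none of them did a shOGT library reach the level of a Scramble library, as was also true, with shOGT lower, of 47.2% of all genes tested. The median log2 fold change of the 5 enzymes was -1.90, beside -1.55 over the 2677 genes called lower and 1.05 over all genes tested. All 5 were called lower (limma, adjusted p from 2.13e-11 to 3.75e-06). For each enzyme the exact two-sided permutation test gave p = 0.1, the smallest that 3 libraries against 3 allow.

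**Figure D1:**
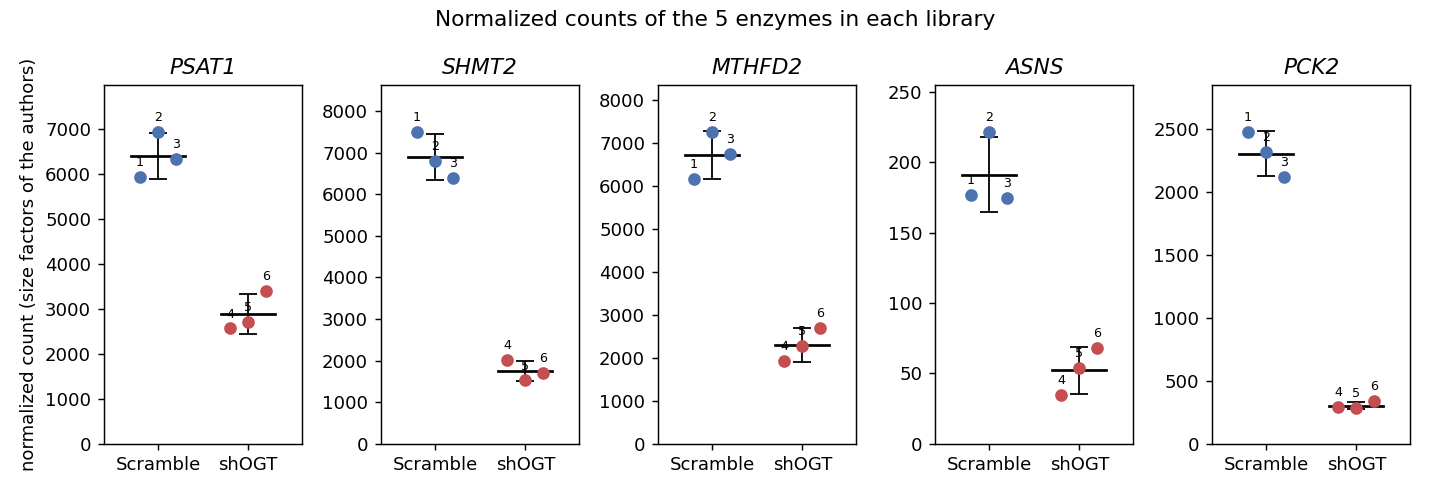
Normalized counts of PSAT1, SHMT2, MTHFD2, ASNS and PCK2 (vertical axes, starting at 0 and scaled to each gene) in 3 Scramble (blue) and 3 shOGT (red) libraries, each point numbered by replicate, with the group mean as a line and the SD as bars. No shOGT point reaches a Scramble point, and the gap is widest for PCK2, whose lowest Scramble library was 6.29 times its highest shOGT library.

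PSAT1, the aminotransferase of the middle step of serine synthesis, lies at chr9:78297143-78330093 on the plus strand (GRCh38). It was at 5948, 6949 and 6338 normalized counts in Scramble and 2569, 2712 and 3401 in shOGT. The shOGT library of replicate 6 stood above the other two, and the lowest Scramble library was still 1.75 times as high. The means were 6412 ± 505 and 2894 ± 445 (SD, n = 3), so 45.1% of the transcript was retained. On the log2 scale the change was -1.16 (SE 0.11, 95% interval -1.38 to -0.93, limma adjusted p = 1.28e-07). This was the smallest change of the 5, and 82.0% of all genes called lower changed by more. With size factors recomputed within the table by the median-of-ratios method, the log2 fold change of PSAT1 was -0.44 (limma adjusted p = 0.00671) and no longer past 2-fold. Such factors have no unchanged genes to rest on, because the table holds only genes selected as changed. Values with recomputed size factors, here and below, are therefore descriptions of the scaling.

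SHMT2, the mitochondrial serine hydroxymethyltransferase, lies at chr12:57229327-57234935 on the plus strand. It was measured at 7506, 6797 and 6395 normalized counts in the Scramble libraries and at 2011, 1521 and 1710 in the shOGT libraries. Replicate 4 was the highest of the shOGT libraries, whereas it was the lowest for PSAT1. The means of 6900 ± 562 and 1747 ± 247 (SD, n = 3) corresponded to 25.3% retained. The log2 fold change was -1.99 (SE 0.11, 95% interval -2.21 to -1.76, limma adjusted p = 5.85e-10), and 27.7% of the genes called lower changed by more. SHMT2 shares 8.83% of its exon bases with the antisense gene AC137834.2 and 0.68% with NDUFA4L2, which lies on the opposite strand. NDUFA4L2, a mitochondrial protein, was itself lower, with 140, 55 and 120 reads in Scramble and 5, 9 and 6 in shOGT. The labels (dUTP marking) and the methods of the study (a strand-specific kit) both describe stranded libraries. Whether the counting used the strand is not given in the sources used here, so reads of such pairs cannot be told apart in these counts.

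MTHFD2, the mitochondrial methylenetetrahydrofolate dehydrogenase and cyclohydrolase, lies at chr2:74198562-74217565 on the plus strand. It was at 6156, 7259 and 6741 normalized counts in Scramble and 1920, 2267 and 2698 in shOGT. Replicate 6 was again the highest shOGT library and replicate 4 the lowest, in the order seen for PSAT1. The mean fell from 6719 ± 552 to 2295 ± 390 (SD, n = 3), with 34.2% retained. The log2 fold change was -1.56 (SE 0.11, 95% interval -1.80 to -1.32, limma adjusted p = 1.18e-08), close to the median of the genes called lower, of which 49.1% changed by more. With the recomputed size factors it was -0.84 (limma adjusted p = 7.84e-05), also under 2-fold. MTHFD2 shares 27.2% of its exon bases with SLC4A5 and 6.06% with AC006030.1, both on the opposite strand and neither analysed here.

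ASNS, the glutamine-dependent asparagine synthetase, lies at chr7:97852118-97872542 on the minus strand. It was counted at a far lower level than the other enzymes, with 199, 246 and 190 reads in Scramble and 33, 50 and 60 in shOGT. In normalized counts these were 176, 222 and 175 against 34.7, 53.6 and 68.3. Replicate 4 was the lowest and replicate 6 the highest of the shOGT libraries, the widest spread of the 5 enzymes (coefficient of variation 32.2% in shOGT, against 9.79% to 17.0% for the others). The means were 191 ± 26.6 and 52.2 ± 16.8 (SD, n = 3), with 27.3% retained. The log2 fold change was -1.90 (SE 0.24, 95% interval -2.41 to -1.38, limma adjusted p = 3.75e-06). The count of ASNS is uncertain. In GENCODE version 29, 44.6% of its exon bases also belong to AC079781.5, a processed transcript on the same strand, and 80.7% of the 75-base stretches of the main ASNS transcript occur in it. AC079781.5 had 0, 9 and 0 reads in Scramble and 9, 25 and 11 in shOGT, the opposite direction to ASNS (log2 fold change 2.92, limma adjusted p = 0.00163). How reads lying in both genes were assigned is not given in the sources used here, so neither the level of ASNS nor the size of its change can be separated from that assignment.

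PCK2, the mitochondrial phosphoenolpyruvate carboxykinase, lies at chr14:24094053-24110598 on the plus strand and shares no exon base with another annotated gene. It was at 2482, 2319 and 2120 normalized counts in Scramble and 291, 282 and 337 in shOGT. The shOGT libraries lay close together and far below every Scramble library. The means were 2307 ± 181 and 303 ± 29.7 (SD, n = 3), and 13.1% of the Scramble level remained, the smallest share of the 5. The log2 fold change was -2.93 (SE 0.10, 95% interval -3.15 to -2.70, limma adjusted p = 2.13e-11), and 145 of the 2677 genes called lower (5.42%) changed by more. The study selected PCK2 as changed from these same libraries, so its direction here is not independent evidence. The study also reports real-time PCR of selected genes of glucose metabolism and lists primers for PCK2. Those measurements were not examined here.

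The enzymes were next compared with one another within each library, where the size factor cancels. Of the 10 pairs, 8 had log2 ratios that did not overlap between Scramble and shOGT (exact two-sided permutation test, p = 0.1 each and 0.125 adjusted over the 10 pairs, so none could pass). Over all pairs of the 2677 genes called lower, 45.5% had ratios that did not overlap, and the 10 pairs share their genes, so the count is a description. PCK2 changed by more than every other enzyme: its log2 ratio to SHMT2 went from -1.58 ± 0.02 to -2.52 ± 0.24 (SD, n = 3) and its ratio to PSAT1 from -1.47 ± 0.19 to -3.24 ± 0.10. MTHFD2 and PSAT1 moved most nearly in step from library to library. Their log2 ratio was 0.05, 0.06 and 0.09 in Scramble and -0.42, -0.26 and -0.33 in shOGT, a difference of -0.40. SHMT2 and MTHFD2 did not separate (difference -0.43, p = 0.3, exact permutation test), nor did SHMT2 and ASNS (difference -0.09, p = 0.9, exact permutation test), and the latter difference changed sign when some libraries were left out. PSAT1 thus changed least and PCK2 most with no overlap of the ratios, and the place of SHMT2 between them was not resolved against MTHFD2 or ASNS.

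**Figure D2:**
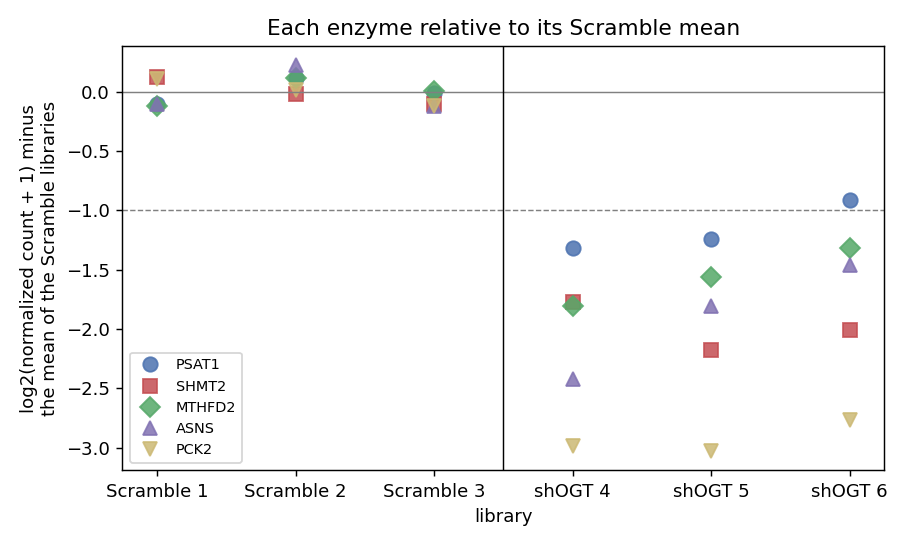
Difference of log2(normalized count + 1) from the mean of the Scramble libraries (vertical axis) for each enzyme in each of the 6 libraries (horizontal axis), 1 point per enzyme and library, with a dashed line at a 2-fold decrease. In shOGT, PCK2 lies lowest in every library, between -3.03 and -2.77, while the ASNS points spread from -2.42 to -1.46 and the PSAT1 point of replicate 6 lies at -0.91.

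Levels were compared between genes only per kilobase of exon. In Scramble, PSAT1 was the most abundant at 2930 ± 231 normalized counts per kb (SD, n = 3), followed by SHMT2 at 1426 ± 116, MTHFD2 at 1380 ± 113, PCK2 at 551 ± 43.2 and ASNS at 42.9 ± 5.97. SHMT2 and MTHFD2 overlapped in Scramble, and every other pair of neighbors was apart. The level of ASNS carries the uncertainty of read assignment given above, so its distance from PCK2 is not settled. In shOGT the levels were 1323 ± 203 for PSAT1, 471 ± 80.0 for MTHFD2, 361 ± 51.1 for SHMT2, 72.3 ± 7.08 for PCK2 and 11.7 ± 3.78 for ASNS, and MTHFD2 and SHMT2 again overlapped. These levels divide by the union of all annotated exons. Divided by the length of the transcript with the longest coding part, SHMT2 stood at 2720 ± 222 in Scramble and overlapped PSAT1, so the order of SHMT2 among the first 3 depends on the isoform assumed.

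The genes of the table whose profile over the 6 libraries lay nearest to each enzyme were listed, among 3453 genes with a mean of at least 50 normalized counts, by the Euclidean distance between log2 profiles centered on their own means. For PSAT1 these were ULBP1 (distance 0.09), SETDB2 and C4BPA (both 0.11). MTHFD2 was nearest to IQCB1 and FARSB, a subunit of phenylalanyl-tRNA synthetase (both 0.11), and to SKA3 (0.12). SHMT2 was nearest to ZNF687, SEMA4A and PTMS (0.12 to 0.15), ASNS to CHAMP1, METTL5 and REXO5 (0.23 to 0.41), and PCK2 to TTC38, SH2B3 and RELB (0.12 to 0.26). No enzyme was among the 3 nearest genes of another. By rank, the closest relation between enzymes was MTHFD2 at rank 37 for ASNS (distance 0.56), whereas ASNS was at rank 462 for MTHFD2. By distance, MTHFD2 and PSAT1 were closer (0.51), with PSAT1 at rank 331 for MTHFD2 and MTHFD2 at rank 537 for PSAT1. The distance mixes the size of the change with the deviations of single libraries, and with 6 libraries it is a description.

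The other genes of the pathways were then examined, from lists of 118 genes besides the 5 enzymes. The table held 42 of them, 33 lower and 9 higher in shOGT, beside 47.2% lower and 52.2% higher among all genes tested, and their median log2 fold change was -1.20. The counts by list below stand beside the same shares and are descriptions of lists chosen with earlier results known. The remaining listed genes, which are most of every list except those of serine and of the ATF4 pathway, were not analysed here. With the recomputed size factors, the listed genes called lower, the 5 enzymes included, dropped from 38 to 15, and the losses are given with each list. That scaling shifted the log2 fold changes of all genes upward nearly alike, by 0.71 at the median. Which genes lost the call thus follows from the size of their change and is no separate result.

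In serine metabolism, the table held 6 of 8 listed genes, each of them lower in shOGT (median log2 fold change -2.03, also with SDS at its bound). PHGDH, which catalyzes the first step of serine synthesis, was at 2308, 2140 and 2261 normalized counts in Scramble and 1160, 1027 and 962 in shOGT (log2 fold change -1.09, limma adjusted p = 5.12e-08). Its change was of the size of that of PSAT1, the next enzyme. SHMT1, the cytosolic counterpart of SHMT2, retained 23.9% (log2 fold change -2.08), beside 25.3% for SHMT2. SDSL, a paralog of serine dehydratase, was at 227, 141 and 124 normalized counts in Scramble and 21.1, 4.28 and 21.6 in shOGT. SDS, the serine dehydratase itself, had 5, 10 and 7 reads in Scramble and none in shOGT, at least 6.10-fold lower against a floor of 3 reads over the group. With the recomputed size factors, SDSL, SDS, SHMT1 and SHMT2 were still called lower. PHGDH (log2 fold change -0.38) and PSAT1, the genes of serine synthesis and the least changed of the 6, were not.

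In the folate cycle, 6 of 19 listed genes were in the table, 5 lower and 1 higher (median -1.15). MTHFD1L, the mitochondrial formate-tetrahydrofolate ligase downstream of MTHFD2, retained 44.1% (log2 fold change -1.18, limma adjusted p = 3.91e-08). ALDH1L1, the cytosolic formyltetrahydrofolate dehydrogenase, was lower at a low level, 56.4 ± 11.4 to 22.2 ± 7.88 normalized counts (SD, n = 3). In the methionine cycle 4 of 12 were in the table: MTR, the methionine synthase, MAT2B, a regulatory subunit of methionine adenosyltransferase, and CTH, the cystathionine gamma-lyase, were lower (log2 fold changes -1.31, -1.14 and -1.05), and GNMT, a glycine methyltransferase with 0 to 16 reads in a library, was higher. None of the 5 genes listed for glycine cleavage was in the table. In purine synthesis, which consumes formyl units, the table held 4 of 12, each lower, led by IMPDH1 (1765, 1479 and 1605 to 383, 349 and 300 normalized counts), IMPDH2 (log2 fold change -1.37) and PAICS (-1.21). With the recomputed size factors, no gene of the folate or methionine lists was called lower, and of the purine list only IMPDH1 was. CTH was also under 2-fold without shOGT replicate 4 (-0.97).

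Around ASNS, 5 of 16 listed genes of asparagine, aspartate and glutamate metabolism were in the table, 4 lower and 1 higher. GPT2, the mitochondrial alanine aminotransferase, retained 37.8% (log2 fold change -1.40). ASS1 and ASL, which pass aspartate nitrogen into arginine, were at -1.16 and -1.33. ASL shares 17.6% of its exon bases with AC068533.4, a gene on the same strand, so its count carries the same kind of limit as that of ASNS. With the recomputed size factors ASNS alone of these 4 was called lower. ASPG, annotated as an asparaginase and so opposite to ASNS in function, was the exception, from 31.0, 13.5 and 20.2 normalized counts in Scramble to 134, 179 and 155 in shOGT (limma adjusted p = 3.98e-07). Around PCK2 the direction was reversed: of 17 listed genes of phosphoenolpyruvate and gluconeogenesis 5 were in the table, and of these PCK2 alone was lower. PKM and the enolases ENO2 and ENO3, which act on either side of phosphoenolpyruvate in glycolysis, were higher by 2.10-fold, 2.01-fold and 5.33-fold. Another listed enolase, ENO1, was not analysed here, and the study reports from quantitative PCR that it decreased in OGT-depleted HT-29 cells. The direction of the enolase step as a whole is therefore not given by these genes. ENO2 was under 2-fold without Scramble replicate 2 (log2 fold change 0.86) or shOGT replicate 4 (0.94). ME1, the cytosolic malic enzyme, was higher by 5.63-fold (750, 788 and 874 to 4183, 4753 and 4643 normalized counts, limma adjusted p = 2.58e-11).

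**Figure D3:**
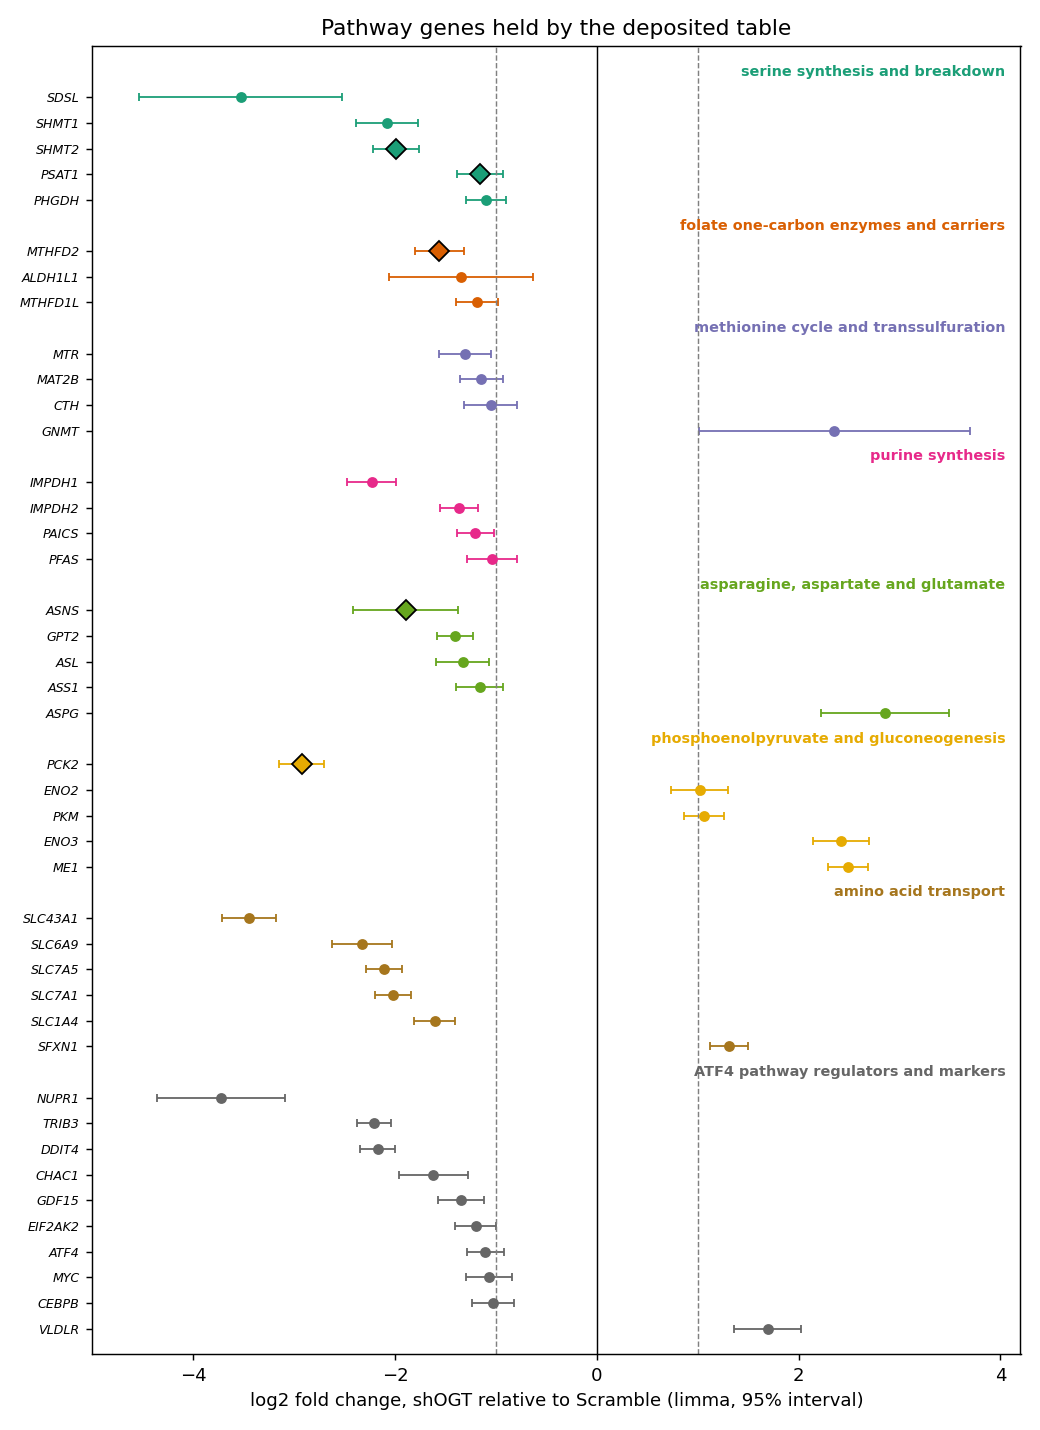
Limma log2 fold changes of shOGT relative to Scramble (horizontal axis, with 95% intervals) for the listed pathway genes in the table, 3 libraries a group, colored by list, with the 5 enzymes as outlined diamonds and dashed lines at 2-fold. Not all listed genes are drawn, and SDS and FGF21, with at most 1 read in shOGT, are among those left out. PCK2 at -2.93 stands alone on the lower side of its list, and the single higher gene of the asparagine list is ASPG at 2.86.

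Among the amino acid transporters, 6 of 13 listed genes were in the table, 5 lower and 1 higher (median log2 fold change -2.06). SLC43A1 and SLC7A5, both carriers of large neutral amino acids, were at -3.45 and -2.10, SLC6A9, a glycine transporter, at -2.33, SLC7A1, a carrier of cationic amino acids, at -2.02, and SLC1A4, a carrier of neutral amino acids including serine, at -1.60. All but SLC1A4 were called lower with the recomputed size factors as well. SFXN1, which carries serine into mitochondria and so supplies SHMT2, was higher in shOGT, at 3840, 4063 and 4221 normalized counts against 1487, 1672 and 1733 (2.48-fold, limma adjusted p = 5.02e-09). The carrier and the enzyme thus changed in opposite directions in these libraries.

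Of 21 genes listed as regulators or markers of the ATF4 pathway, 11 were in the table, 10 lower and 1 higher (median -1.35). ATF4 itself was at 4664, 4452 and 4158 normalized counts in Scramble and 2186, 2028 and 1960 in shOGT (46.5% retained, log2 fold change -1.10, limma adjusted p = 1.92e-08). The 95% intervals of SHMT2, MTHFD2, ASNS and PCK2 lay wholly beyond 2-fold, whereas those of PSAT1 and ATF4 reached into smaller changes. TRIB3, a pseudokinase induced by ATF4, retained 21.6%, and CHAC1, a glutathione-degrading enzyme, 33.0%. NUPR1, a stress-induced nuclear protein, went from 174, 107 and 123 normalized counts to 8.42, 8.57 and 10.2. FGF21, a secreted stress hormone, had 43, 33 and 27 reads in Scramble and 0, 1 and 0 in shOGT, a ratio of 85.6 with a 95% counting interval of 15.0 to 3413. The gene on the higher side was VLDLR, a lipoprotein receptor. MYC retained 47.9% (log2 fold change -1.07). The study, by contrast, reports from quantitative PCR no significant decrease of c-Myc mRNA in OGT-depleted HT-29 cells. Why the measurements differ was not tested. With the recomputed size factors only 4 of the 11 genes were called lower, namely DDIT4, FGF21, NUPR1 and TRIB3, while ATF4 was at -0.39, MYC at -0.35 and CHAC1 at -0.90. MYC was also under 2-fold without shOGT replicate 5 (-0.97). The direction in this list was known from earlier results on these libraries and is not independent evidence. Of the 31 listed genes called lower that had a promoter window, TGATGNAA was found in 6, namely ASNS, CHAC1, FGF21, MTHFD1L, SLC1A4 and SLC7A1, and in 0 of 7 listed genes called higher, beside 2.785% of all genes called lower and 4.426% of all genes called higher. CACGTG was found in 7 of the 31, namely ASS1, ATF4, EIF2AK2, MTHFD1L, PAICS, SLC43A1 and SLC7A5, and in 0 of the 7, and CCAAT in 18 of the 31 and 3 of the 7. All 3 motifs also occurred in windows of listed genes that were called in neither direction and were not analysed here. Because the lists include regulators and markers of the ATF4 pathway, these counts describe the lists. A link between a motif and the direction of change was not tested.

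**Figure D4:**
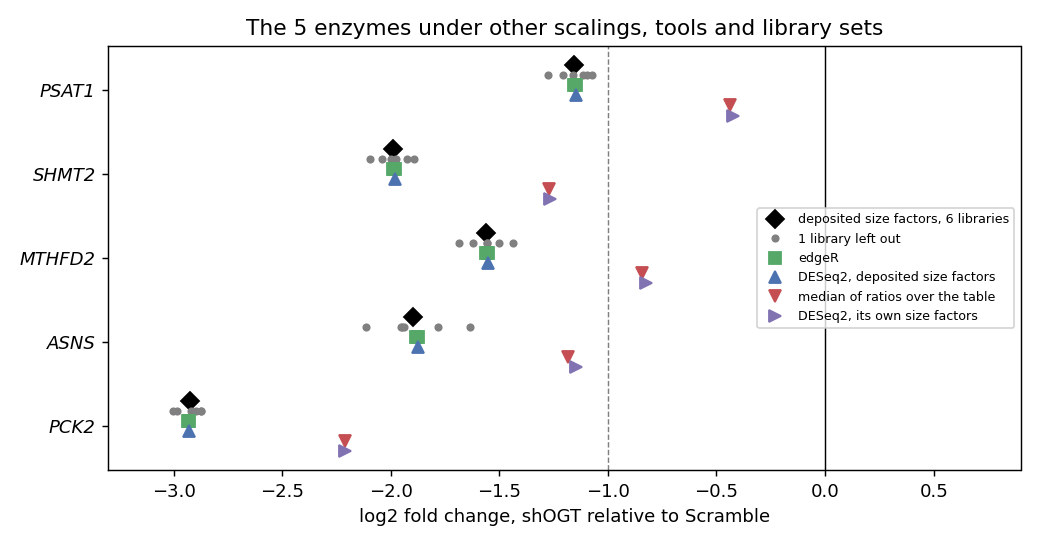
Log2 fold change of the 5 enzymes (horizontal axis, dashed line at a 2-fold decrease) with the size factors of the authors and all 6 libraries (black), with 1 library left out (grey) and under other tools and scalings (colors). Leaving out a library, or using edgeR or DESeq2 with the deposited size factors, keeps every enzyme beyond 2-fold. Size factors recomputed within the table move all 5 to the right, PSAT1 to -0.44 and MTHFD2 to -0.84. DESeq2 computed the same size factors and gave -0.42 and -0.82 with its count model.

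Scaling moved these values more than any library did. Size factors recomputed within the table shifted the median of all genes tested by 0.71 on the log2 scale. They changed the split of calls from 47.5% lower and 52.5% higher to 26.8% and 73.2%. DESeq2 computed the same size factors, so its shift of 0.72 and its split of 25.03% and 74.97% do not come from another scaling. Because such a rescaling shifts all genes nearly alike, it leaves the position of the enzymes relative to that median as it was: -3.97 for PCK2, -3.03 for SHMT2 and -2.20 for PSAT1 with the deposited size factors. The table holds no unchanged genes on which such factors could be based, and those of the authors were kept.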

How the data were processed

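RNA-seq values of 6 HT-29 libraries were analysed. The authors deposited a signal table of counts divided by a size factor per library. Dividing each column by its smallest step gave whole reads for 100% of the values (tolerance 0.02). The plan had foreseen raw counts or values such as FPKM, so the branch for normalized values was followed. The submitters' processing notes name cutadapt 1.9, HISAT2 2.0.4, UMI-tools, StringTie 1.3.4d, DESeq2 and edgeR, with the mouse build mm8. The identifiers are human, however, and all 5681 genes matched the positions of GENCODE version 29 on GRCh38. The labels describe oligo(dT) capture, dUTP marking and unique molecular identifiers, whereas the methods of the study name a SureSelect strand-specific kit. The table also holds the authors' own comparison (group means, fold changes and p-values, raw and adjusted), which was not used.

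The groups were compared with the trend method of limma 3.58.1 under R 4.3.3 on log2(normalized count + 1), with no covariate. Genes needed a normalized count of 1 or more in 3 or more libraries, which kept 5671, and p-values were adjusted over all of them (Benjamini-Hochberg). A gene was called at an adjusted p under 0.05 and an absolute log2 fold change over 1. Alternatives were the count models of edgeR 4.0.16 and DESeq2 1.42.0, other scalings, a pseudocount of 0.1, other filters and each library left out. Runs of edgeR and DESeq2 with the deposited size factors were added after seeing the data. Overlaps and 75-base stretches came from GENCODE. Intervals on reads cover counting error only.

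The 5 enzymes, the pathway lists and the tests were chosen with earlier results of these data known. The genes named were the 5 enzymes, OGT, MYC, ATF4, set partners of the enzymes, in each list the 3 most changed genes whose mean reached 10 normalized counts, and the 3 genes nearest in profile to each enzyme. Outside this rule, SDS, GNMT, ASS1, ASL, PKM, ENO2, SLC7A1, SLC1A4, VLDLR, DDIT4, EIF2AK2 and the markers were picked with their values in view, and AC079781.5, NDUFA4L2, SLC4A5, AC137834.2, AC006030.1 and AC068533.4 for their overlap. ENO1 was named only for the result that the study reports. Values of some listed genes are not reported here, and they remain in the counts and medians of their lists.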

Additional observations from a re-analysis of the deposited data

How the results depend on the processing

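The log2 fold changes of the 5 enzymes kept their direction under every alternative run. Size factors recomputed within the table gave -0.44 for PSAT1 and -0.84 for MTHFD2, and DESeq2 with its own size factors gave -0.42 and -0.82, each under 2-fold with an adjusted p still under 0.05 (limma and DESeq2). The same settings lowered the genes called lower from 2677 to 1090 and 994, and the listed pathway genes called lower from 38 to 15 and 15. Both settings use the same size factors under different models and shift the log2 fold changes of all genes upward nearly alike. The table holds no unchanged genes on which these factors could be based. TMM, the other pseudocount, the filters, and edgeR and DESeq2 with the deposited size factors changed no call of the enzymes. With a library left out, the fold changes ranged from -1.28 to -1.07 for PSAT1, -2.09 to -1.89 for SHMT2, -1.68 to -1.44 for MTHFD2, -2.11 to -1.63 for ASNS and -3.004 to -2.871 for PCK2. The difference between SHMT2 and ASNS ranged from -0.46 to 0.14 and reversed without Scramble replicate 1 (0.02), shOGT replicate 5 (0.05) or shOGT replicate 6 (0.14). Divided by the length of the longest coding transcript, the Scramble levels per kb were 2720 for SHMT2, 1508 for MTHFD2, 81.1 for ASNS and 979 for PCK2. No paired analysis was possible because the labels number the libraries 1 to 6 and the groups share no replicate number. Depth limits ASNS most, with 33 to 60 reads in the shOGT libraries.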

Other observations

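The CCAAT box found in the windows of PSAT1, MTHFD2 and PCK2 was also frequent among the genes of the table that were lower in shOGT. It occurred in 51.5% of the 1903 genes called lower that had a window, in 37.07% of the 1446 genes called higher and in 39.72% of all 27305 genes with a window. CACGTG occurred in 12.19% of the genes called lower and 12.24% of those called higher, beside 8.775% of all genes with a window. These shares are descriptions of RefSeq windows, and the table holds selected genes.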
